A study of Mus musculus with 4 samples.

Results

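The actins, tropomyosins, vimentin and transgelins of mouse cumulus cells (CCs) were followed on 20 probes of an Illumina mouse BeadChip, out of 25697 probes in the deposited table. A list of 10 genes was set (Actb, Actg1, Acta2, Tpm1, Tpm2, Tpm3, Tpm4, Vim, Tagln and Tagln2), and every probe whose name in the table was one of these symbols was kept. A probe was found for 9 genes, of 18118 distinct names in the table, Tagln2 being the one without a match. There were 5 probes for Actb, 4 for Tpm3, 3 each for Acta2 and Tpm2, and 1 each for Actg1, Tpm1, Tpm4, Vim and Tagln.

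The arrays compared CCs taken from oocytes of known developmental incompetence (NSN-CCs, from oocytes whose nucleolus lacks a chromatin ring) with CCs from competent oocytes (SN-CCs, whose oocytes have that ring). The CCs of many oocytes were combined into 2 pools of NSN-CCs and 2 pools of SN-CCs, each read on its own array, so n = 2 for each type of CCs. All donors were B6C3F1 females of 6 weeks by the labels (the study's methods give a range of ages that ends at 6 weeks), primed with folligon, a gonadotrophin preparation, and no CCs of unprimed animals were compared. The labels call the tissue oocytes, while titles and source names say cumulus cells.

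Actin forms the microfilaments that give a cell its shape and carry its contacts, and in the cumulus it also fills the projections that reach through the zona pellucida to the oocyte. Tropomyosins lie along these filaments and set which proteins may bind them, transgelins bundle them, and vimentin builds the intermediate filaments of mesenchymal cells and of granulosa cells. Many actin genes are switched on by serum response factor (SRF), which binds a short element called the CArG box.

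Sequences upstream of the start site are shown for Vim, whose single probe had one of the largest differences, and for Actg1, the gene of the set with a CArG box in its listed promoter. They cover the 100 bases before the start in the RefSeq promoter table (GRCm38.p6), chr2:13574211-13574310 on the plus strand for Vim and chr11:120348496-120348595 on the minus strand for Actg1, with matches of the motifs searched in capitals.
Vim: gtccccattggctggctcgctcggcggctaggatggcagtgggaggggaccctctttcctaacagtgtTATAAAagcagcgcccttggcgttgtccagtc
Actg1: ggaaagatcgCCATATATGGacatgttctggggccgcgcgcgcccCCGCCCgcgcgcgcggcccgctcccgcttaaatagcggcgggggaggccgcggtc
The capitals mark TATAAA in Vim, and the CArG box and a GC box (GGGCGG, here on the other strand) in Actg1. Over the 250 bases before the start, read on both strands, a CArG box was found in 1.47% of 32851 listed promoters, TATAAA in 12.4% and GGGCGG in 32.7%. Of the genes of the set, Actg1 alone had a CArG box and Vim alone had TATAAA among those with a listed promoter, which were all but Actb and Tagln. A match is a description of these letters and not of a site in use. A gene without a match was not shown to lack such a site.

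Signals are given as deposited, on a linear scale from which no background had been taken. The background limit of an array was the 95th percentile of its 1392 probes for chemosensory receptors, and it lay between 116 and 120. The array of SN-CCs replicate 2 differed from the rest: its normalized values correlated with theirs at r = 0.93 to 0.934, against 0.993 to 0.995 among the others, and 11691 probes were above the limit there, against 13536 to 13660 on the other arrays. Before testing, background was corrected, the arrays were quantile normalized and log2 values were taken. A log2 fold change is the NSN-CCs mean minus the SN-CCs mean of these values, tested with limma and adjusted by Benjamini-Hochberg over all probes. A value without SN-CCs replicate 2 rests on 1 pool of SN-CCs, which is then assumed to vary like the NSN-CCs pools.

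With limma, 0 of the 20 probes and 0 of all 25697 (0.0%) reached an adjusted p of 0.05. At an unadjusted p under 0.05, 2 of the 20 were higher in NSN-CCs (Tpm1 and a probe of Acta2), where 1.09% of all probes were, and 0 were lower, where 2.02% of all probes were. The NSN-CCs pools did not overlap the SN-CCs pools on 6 of the 20 probes, against 38.2% of all probes. On these 6 (Vim, Tpm1, Tpm4, Acta2 ILMN_2710353, and Tpm3 ILMN_2444316 and ILMN_2426965) both NSN-CCs pools were above both SN-CCs pools, which was so for 4110 of all probes, while 5702 of all probes had them below. Without SN-CCs replicate 2, 0 of the 20 passed an adjusted p of 0.05 (0.00389% of all probes), and without SN-CCs replicate 1, 13 did (37.2% of all probes). With 2 pools against 2 an exact permutation test cannot give a two-sided p under 0.333.

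**Figure D1:**
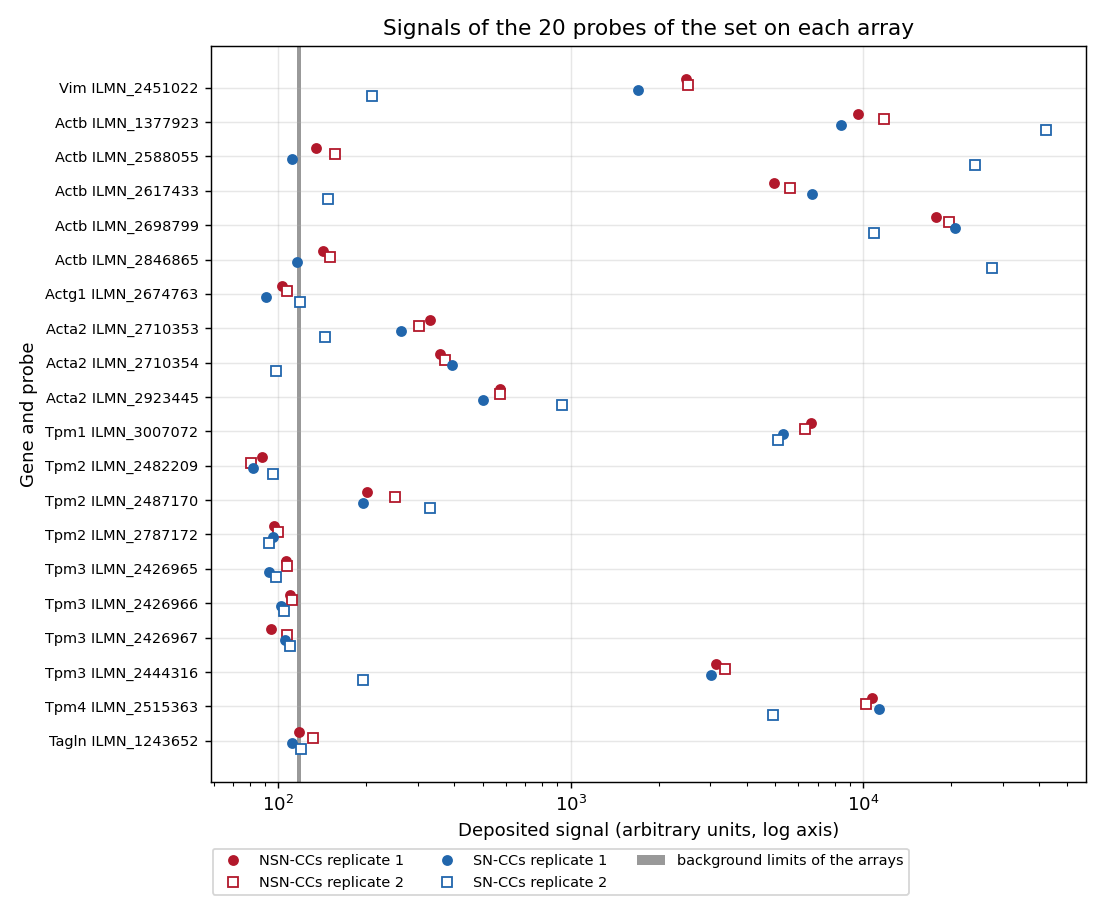
Deposited signal (log axis) of each of the 20 probes on the 4 arrays, with NSN-CCs in red and SN-CCs in blue, circles for replicate 1 and squares for replicate 2, and the background limits as a grey band. The open blue squares of SN-CCs replicate 2 lie away from the other 3 points on probes of Vim, Actb, Acta2, Tpm3 and Tpm4, to the left on some probes and to the right on others.

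Vim was brighter in both NSN-CCs pools than in either SN-CCs pool. Its signals were 2480 and 2512 in NSN-CCs, against 1695 and 209 in SN-CCs, so the groups did not overlap and SN-CCs replicate 2 was far below every other pool. The mean log2 value was 11.35 ± 0.013 in NSN-CCs and 9.32 ± 1.80 in SN-CCs (SD, n = 2 pools each). The log2 fold change was 2.03 (standard error 0.88, 95% confidence interval -0.36 to 4.43, adjusted p = 0.811 from limma), a 4.09-fold difference. Without SN-CCs replicate 2 it was 0.71 (adjusted p = 0.270 from limma). The genes outside the set whose centred log2 values over the 4 arrays lay nearest to those of Vim, among 9933 probes, were Erdr1 (Euclidean distance 0.23), Rabac1 (0.31) and the lysosomal protease gene Lgmn (0.38). These 3 genes shared with Vim a low value in SN-CCs replicate 2, with signals of 375, 359 and 189 there, which follows from how they were picked. The paper lists Vim, Erdr1 and Lgmn as up-regulated in NSN-CCs, from a permutation-based test with thresholds of its own. Here limma on all 4 arrays called no probe at an adjusted p of 0.05.

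The cytoplasmic actin Actb is the reference gene of the qRT-PCR in this study. It was picked there among several genes because both types of CCs expressed it alike by that method. The array was not a test of that choice. On the array Actb gave no single answer, because its 5 probes went in different directions. The first, probe ILMN_2698799, gave 17708 and 19692 in NSN-CCs, against 20708 and 10921 in SN-CCs. NSN-CCs replicate 1 and SN-CCs replicate 1 had the same normalized log2 value, 14.24, and SN-CCs replicate 2 was the lowest. The difference was 0.56 on the log2 scale (standard error 0.36, 95% confidence interval -0.43 to 1.55, adjusted p = 0.811 from limma). Without SN-CCs replicate 2 it was 0.077. Probe ILMN_1377923 had signals of 9627 and 11782 in NSN-CCs, against 8381 and 42167 in SN-CCs. There SN-CCs replicate 2 was the brightest pool and SN-CCs replicate 1 the dimmest, and the log2 fold change was -0.68 (standard error 0.86), which became 0.54 without SN-CCs replicate 2.

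The remaining 3 Actb probes differed most between the SN-CCs pools. Probe ILMN_2617433 had signals of 4947 and 5621 in NSN-CCs, against 6664 and 148 in SN-CCs. Probe ILMN_2846865 had 142 and 150 in NSN-CCs, against 116 and 27716 in SN-CCs. Probe ILMN_2588055 had 134 and 156 in NSN-CCs, against 112 and 24230 in SN-CCs. ILMN_2846865 and ILMN_2588055 were near the background limit on 3 arrays and bright in SN-CCs replicate 2, while ILMN_2617433 was bright on 3 arrays and dim in SN-CCs replicate 2. In SN-CCs replicate 1, ILMN_2846865 and ILMN_2588055 were not above background.

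On the normalized log2 scale SN-CCs replicate 2 minus replicate 1 was at least 8.08 for ILMN_2846865 and at least 7.80 for ILMN_2588055, with replicate 1 set to the lowest value above background there, and it was 2.46 for ILMN_1377923, -0.99 for ILMN_2698799 and -5.18 for ILMN_2617433. The NSN-CCs pools differed by 0.098 to 0.24 on the same probes. ILMN_2846865 and ILMN_2588055 were 185 and 156 times brighter in SN-CCs replicate 2 than on the brightest other array, and they were the only probes of the array with a ratio over 10 (0.00778% of all probes). The next highest ratio was 4.15, for Ptprs. In the other direction 96 probes (0.374%) were more than 10 times dimmer in SN-CCs replicate 2 than on every other array, among them ILMN_2617433 and the Tpm3 probe ILMN_2444316. These ratios were looked for after the values had been seen. The limma log2 fold changes of the probes were -3.72 for ILMN_2846865 (standard error 2.78), -3.57 for ILMN_2588055 (standard error 2.70) and 2.47 for ILMN_2617433 (standard error 1.78), and the adjusted p from limma was 0.811 for the 3 probes. Without SN-CCs replicate 2 they were 0.36, 0.40 and -0.12, so each changed sign. Where in the Actb transcript a probe lies, and whether it also binds the closely related Actg1 or copies of Actb elsewhere in the genome, was not tested.

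**Figure D2:**
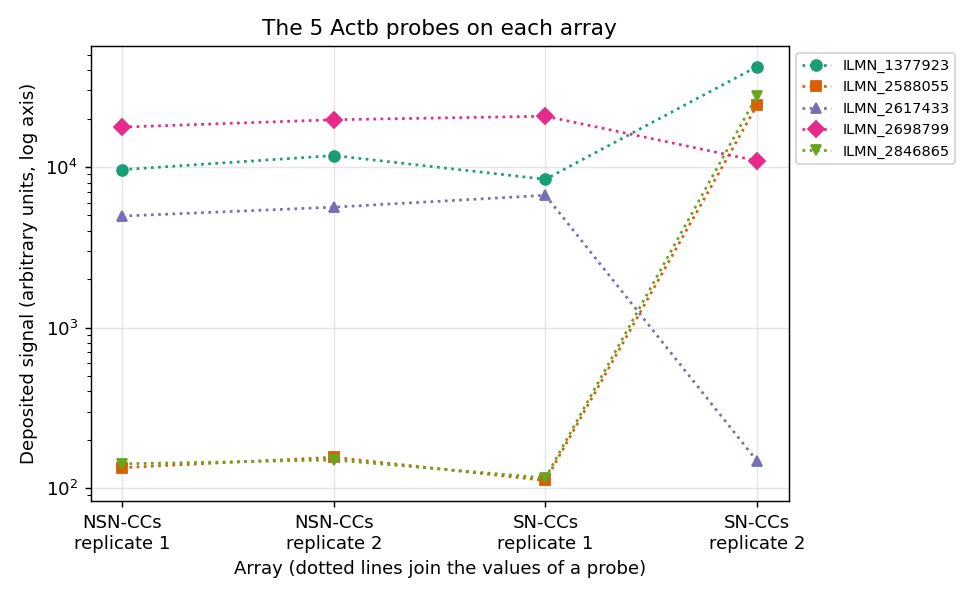
Deposited signal (log axis) of the 5 Actb probes on the 4 arrays, NSN-CCs at the left and SN-CCs at the right, one colour and marker per probe, with dotted lines only to join the values of a probe. The probes hold a similar order on 3 arrays, and in SN-CCs replicate 2 ILMN_2846865 and ILMN_2588055 reach 27716 and 24230 while ILMN_2617433 is at 148.

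Actg1, the other cytoplasmic actin, was not above background on any array with its 1 probe, with signals of 103 and 107 in NSN-CCs, against 90.5 and 118 in SN-CCs. No fold is given for it.

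Acta2, the actin of smooth muscle and of the outer theca, had moderate signals on its 3 probes, and these also disagreed. Probe ILMN_2710353 had signals of 330 and 302 in NSN-CCs, against 263 and 145 in SN-CCs, with no overlap between the groups. The log2 fold change came to 0.56 (standard error 0.19, 95% confidence interval 0.035 to 1.08, unadjusted p = 0.0413, adjusted p = 0.811 from limma), and 0.36 without SN-CCs replicate 2. On the authors' table the value was 0.30 (unadjusted p = 0.463 from limma). The unadjusted p of limma was between 0.0555 and 0.081 with an offset of 16, median scaling, cyclic loess or dim probes left out. It was 0.0398 without background correction, 0.0405 with array weights and 0.0452 with a replicate block. The adjusted p of limma was between 0.655 and 0.894 under these alternatives. Probe ILMN_2710354 had 357 and 372 in NSN-CCs, against 393 and 98.1 in SN-CCs, the last being below the background limit. Its log2 fold change of 0.97 (standard error 0.70) became -0.034 without SN-CCs replicate 2. Probe ILMN_2923445 had 571 and 574 in NSN-CCs, against 503 and 930 in SN-CCs. Here SN-CCs replicate 2 was the brightest pool, and the log2 fold change of -0.33 (standard error 0.45) became 0.29 without it.

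A further probe, ILMN_2693895, stands in the table as 0610041G09RIK, a name that RefSeq lists as a synonym of Acta2 and that the platform annotation assigns to that gene. It was not among the 20 probes and was looked at after the others. It had signals of 3770 and 3699 in NSN-CCs, against 3435 and 5854 in SN-CCs, with the NSN-CCs pools between the SN-CCs pools, and a log2 fold change of -0.066 (standard error 0.28, adjusted p = 0.957 from limma). Without SN-CCs replicate 2 the value was 0.27. Tagln, an actin-bundling protein of smooth muscle, was near the limit, with signals of 117 and 132 in NSN-CCs, against 112 and 120 in SN-CCs, and was above background in 1 pool of each type of CCs. The difference was -0.0013 on the log2 scale (standard error 0.18, 95% confidence interval -0.48 to 0.48).

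Tpm1, a tropomyosin found in muscle and non-muscle cells, had the smallest unadjusted p of the set, and its pools of each type lay close together. Its signals were 6620 and 6335 in NSN-CCs, against 5330 and 5134 in SN-CCs, and the groups did not overlap. The mean log2 value was 12.78 ± 0.025 in NSN-CCs and 12.25 ± 0.068 in SN-CCs (SD, n = 2 pools each). The log2 fold change was 0.53 (standard error 0.13, 95% confidence interval 0.17 to 0.90, unadjusted p = 0.0144, adjusted p = 0.811 from limma), a 1.45-fold difference. It was 0.48 without SN-CCs replicate 2 and 0.58 without SN-CCs replicate 1. Median scaling in place of quantile normalization gave 0.25, and the unadjusted p of limma was then 0.139. That p was 0.0558 with a normexp offset of 16, 0.0538 with dim probes left out and 0.257 on the authors' table. It was 0.0091 without background correction, 0.013 with cyclic loess, 0.026 with array weights and 0.043 with a replicate block. The adjusted p of limma was between 0.635 and 0.894 under these alternatives.

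Tpm4, a tropomyosin of non-muscle cells, had signals of 10760 and 10231 in NSN-CCs, against 11335 and 4924 in SN-CCs. The signals overlapped, whereas after normalization both NSN-CCs pools lay above both SN-CCs pools. Its log2 fold change of 0.70 (standard error 0.45, adjusted p = 0.811 from limma) was 0.083 without SN-CCs replicate 2. Tpm3 was bright on probe ILMN_2444316, with 3151 and 3377 in NSN-CCs, against 3016 and 195 in SN-CCs. The groups did not overlap, yet SN-CCs replicate 1 was close to the NSN-CCs pools, and the log2 fold change of 2.04 (standard error 1.22, adjusted p = 0.811 from limma) was 0.26 without SN-CCs replicate 2. The other 3 Tpm3 probes were not above background on any array, with signals between 92.9 and 111.

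Tpm2, which is best known from skeletal and smooth muscle, was above background on 1 of its 3 probes. On that probe, ILMN_2487170, the signals were 202 and 250 in NSN-CCs, against 195 and 331 in SN-CCs, with both NSN-CCs pools between the SN-CCs pools. The log2 fold change of -0.41 (standard error 0.50, adjusted p = 0.837 from limma) became 0.28 without SN-CCs replicate 2. The other 2 probes of Tpm2 gave signals between 80.6 and 99.4, not above background.

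**Figure D3:**
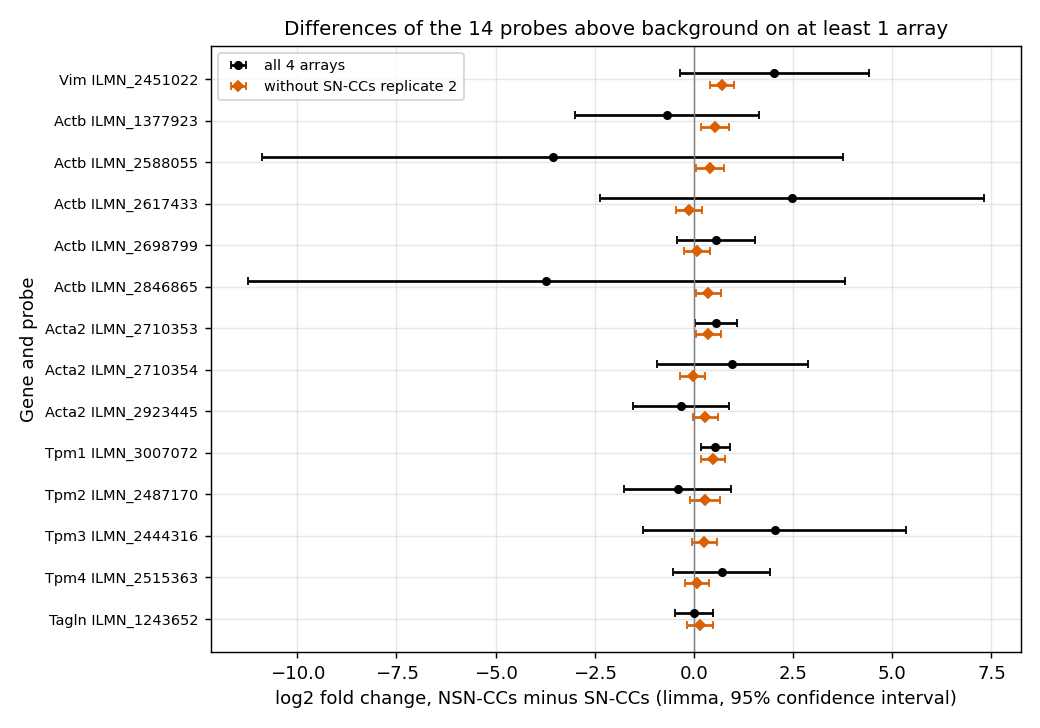
Log2 fold change (NSN-CCs minus SN-CCs) with its 95% confidence interval from limma for the 14 probes above background on at least 1 array, for all 4 arrays in black and without SN-CCs replicate 2 in orange, where the lone SN-CCs pool is assumed to vary like the NSN-CCs pools. The interval clears 0 for Tpm1 (0.17 to 0.90) and Acta2 ILMN_2710353 (0.035 to 1.08) on all arrays, before any adjustment over probes.

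Over all 20 probes, 11 had a log2 fold change above 0 and 9 below, with a median of 0.033, while 44.0% of all probes were above 0, with a median of -0.033. Of the 20, 6 were not above background on any array, 10 were above it on all 4 arrays, and 14 on at least 1. The 14 had 8 values above 0, where 44.4% of all probes above background on at least 1 array were, and 12 without SN-CCs replicate 2, where 50.2% of those probes were. The lowest signal of the 4 arrays was in SN-CCs replicate 2 on 9 of the 20 probes (37.2% of all probes) and the highest on 8 (30.3% of all probes). The SN-CCs pools differed by more than 2 on the log2 scale on 7 of the 20 probes, against 2.06% of all probes. Of these 7 probes, 4 were of the single gene Actb, with 1 each of Vim, Acta2 and Tpm3. All 7 were among the 14 above background on at least 1 array, and 529 of 15206 such probes differed that much. The NSN-CCs pools differed by more than 2 on 0 of the 20 probes, the largest difference being 0.33. What sets SN-CCs replicate 2 apart was not tested.

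**Figure D4:**
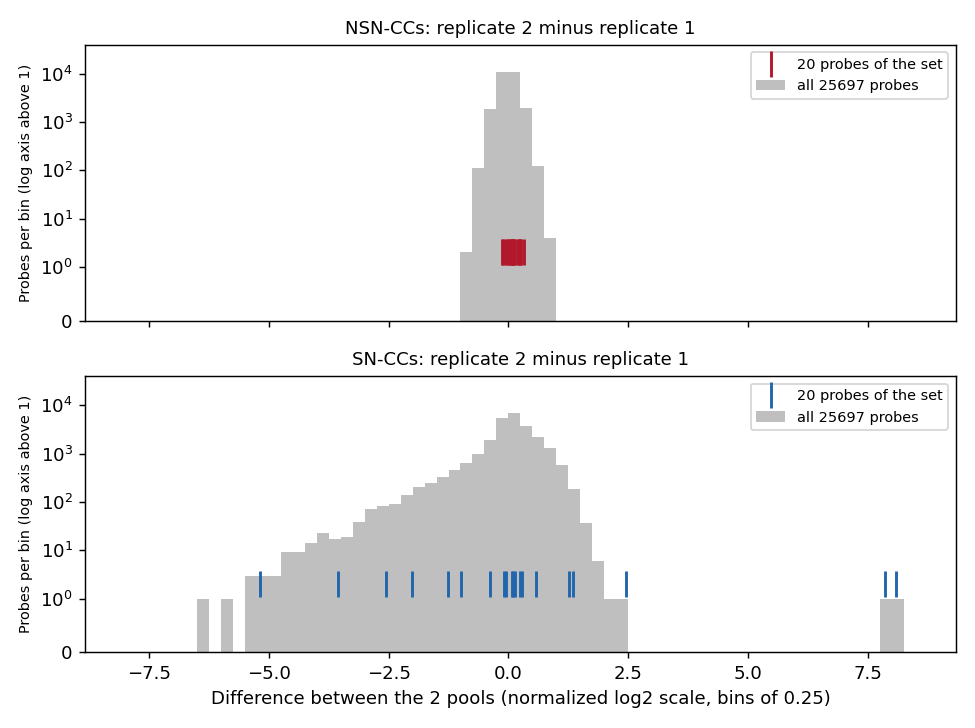
Difference between replicate 2 and replicate 1 on the normalized log2 scale, for NSN-CCs (top) and SN-CCs (bottom), with grey bars counting all 25697 probes in bins of 0.25 (log axis above 1) and coloured ticks marking the 20 probes. The ticks stay within 0.33 of 0 in NSN-CCs and run between -5.18 and 8.09 in SN-CCs, where the ticks at 7.86 and 8.09, drawn at the measured values although SN-CCs replicate 1 was not above background, are the Actb probes ILMN_2588055 and ILMN_2846865.

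Other genes of the cytoskeleton were read on the brightest probe of each gene. Over all probes, 44.0% had a log2 fold change above 0, with 1.09% higher and 2.02% lower at an unadjusted p under 0.05 in limma. Of 10572 probes above background on all arrays, 3967 were above 0, with 214 higher and 459 lower at that p. Of 26 genes of actin turnover and nucleation, 16 had a log2 fold change above 0 and 10 below (median 0.16), and 2 higher and 1 lower had an unadjusted p under 0.05. These were Cfl2, a cofilin that severs actin filaments (0.83, standard error 0.25), Capza2 of the capping protein, which was not above background on any array, and Pfn2, a profilin that delivers actin monomers (-0.82, standard error 0.17). Pfn2 had signals of 963 and 992 in NSN-CCs, against 1641 and 1848 in SN-CCs, and its difference was -0.62 without SN-CCs replicate 2. Actr3 of the Arp2/3 complex was at -0.32 (standard error 0.15). Without SN-CCs replicate 2 Cfl2 was at 0.52 and Actr3 at -0.38. None of these genes, or of those in the lists that follow, passed an adjusted p of 0.05 in limma.

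Of 23 genes of actin crosslinking, adhesion and contraction, 15 were above 0 and 8 below (median 0.15), with 0 at an unadjusted p under 0.05. Above 0, the smallest p belonged to the myosin light chain kinase gene Mylk (0.39, standard error 0.16) and the membrane linker gene Ezr (0.56, standard error 0.27). Below 0, it belonged to the myosin light chain gene Myl12b (-0.32, standard error 0.14) and to Rdx (-0.40, standard error 0.24). Rdx was above background on 1 array. Without SN-CCs replicate 2 Mylk was at 0.36, Ezr at 0.20, Myl12b at -0.25 and Rdx at -0.11. Muscle actins and smooth muscle contractile genes were split evenly, 5 and 5 of 10 (median -0.087). Smtn, smoothelin of contractile smooth muscle, was above 0 at an unadjusted p under 0.05 (0.62, standard error 0.15), with signals of 1366 and 1506 in NSN-CCs, against 1117 and 761 in SN-CCs. Myh11, the smooth muscle myosin, was at 0.34 (standard error 0.19) and above background on 3 arrays. Cnn1 (-0.33, standard error 0.22) and Tagln3 (-0.28, standard error 0.18) were above background on 1 array each. Without SN-CCs replicate 2 Smtn was at 0.50, Myh11 at 0.16, Cnn1 at -0.082 and Tagln3 at -0.12.

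Of 14 genes of other intermediate filaments and their linkers, 6 were above 0 and 8 below (median -0.025, and 0.21 without SN-CCs replicate 2). Synm, whose protein joins vimentin in mixed filaments, was at 0.74 (standard error 0.24, unadjusted p = 0.0357 from limma), with signals of 651 and 789 in NSN-CCs, against 566 and 266 in SN-CCs. The linker gene Plec was at 0.44 (standard error 0.19) and the epithelial keratin gene Krt18 at -0.34 (standard error 0.41). Nes, above background on 1 array, was at -0.12 (standard error 0.13). Without SN-CCs replicate 2 Synm was at 0.46, Plec at 0.61 and Nes at -0.14, and Krt18 changed sign to 0.23. Of 13 tubulins 6 were above 0 and 7 below (median -0.091). Tubg1, the tubulin of microtubule nucleation, was the one with an unadjusted p under 0.05 (-0.50, standard error 0.18), while Tuba1a (2.12, standard error 1.37) had signals of 4935 and 4980 in NSN-CCs, against 5204 and 245 in SN-CCs. Tubb2b was at 0.30 (standard error 0.15) and Tuba8 at -0.60 (standard error 0.29). Without SN-CCs replicate 2 Tubg1 was at -0.38, Tuba1a at 0.13, Tubb2b at 0.18 and Tuba8 at -0.25.

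Of 12 genes of the SRF pathway, which holds SRF, its coactivators and some targets, 6 were above 0 and 6 below (median 0.090). Junb (1.05, standard error 0.24) was the one with an unadjusted p under 0.05, and the matricellular gene Ccn1 was at 1.04 (standard error 0.40). The coactivator gene Mrtfb was at -0.38 (standard error 0.29). Ankrd1, above background on 2 arrays, was at -0.18 (standard error 0.20). The gene of SRF itself was at -0.13 (standard error 0.18). Without SN-CCs replicate 2 Junb was at 0.76, Ccn1 at 0.47 and Mrtfb at -0.057. Ankrd1 (0.0045) and the gene of SRF (0.039) then changed sign.

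**Figure D5:**
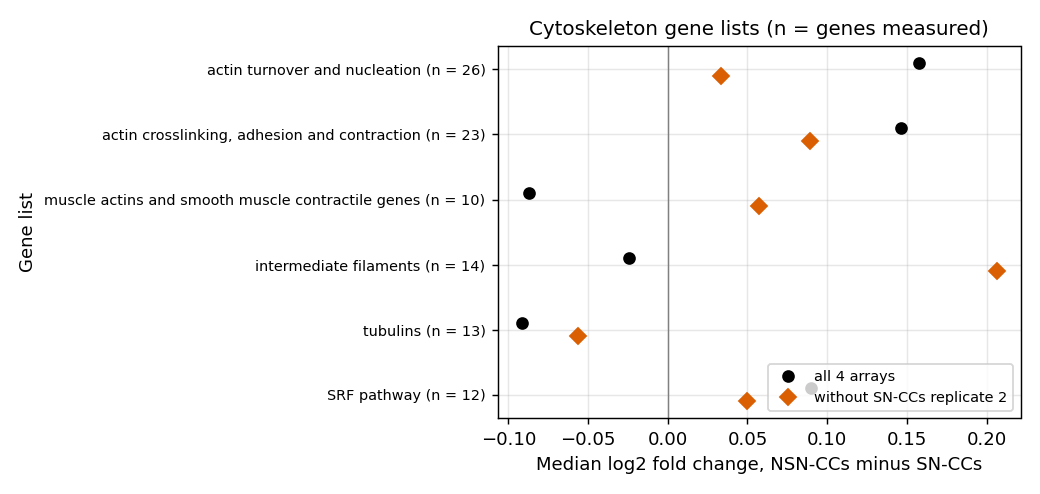
Median log2 fold change (NSN-CCs minus SN-CCs) of 6 lists of cytoskeleton genes, on all 4 arrays in black and without SN-CCs replicate 2 in orange, with the number of genes measured beside each name. The medians lie between -0.091 and 0.16 on all arrays, and those of the intermediate filaments and the muscle list change sign without that array.

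Acta2 and Tagln are also marks of smooth muscle and theca cells, and in such pools fewer cells of a type and less RNA per cell cannot be told apart. Granulosa markers were bright, 8 of 8 above background on 3 arrays and 7 of 8 in SN-CCs replicate 2, with summed signals of 134416 to 139668 in NSN-CCs and 100931 to 141789 in SN-CCs. Of 8 markers of smooth muscle and pericytes, 3 were above background on all arrays, Rgs5 on none, and their summed signal was 1216 to 1221 in NSN-CCs and 1070 to 1372 in SN-CCs. Of 8 theca and stroma markers, 5 were above background on all arrays, and Insl3 and Col1a2 on none, with sums of 3830 to 3836 in NSN-CCs and 3680 to 5088 in SN-CCs. Endothelial markers summed to 861 to 905 in NSN-CCs and 865 to 874 in SN-CCs (2 of 6 above background on all arrays, Cdh5 and Kdr on none), and leukocyte markers to 853 to 923 in NSN-CCs and 735 to 840 in SN-CCs (3 of 6, Ptprc on none). Oocyte markers had a log2 fold change below 0 in 8 of 8 genes. So did 14397 of all 25697 probes and 6605 of the 10572 above background on all arrays. The oocyte markers had sums of 2603 to 2690 in NSN-CCs and 3370 to 3762 in SN-CCs (7 of 8 above background on all arrays, Zp2 on none). Of the red cell genes, Hba-a1, an alpha globin gene, had 14494 and 15008 in NSN-CCs, against 12295 and 7965 in SN-CCs, and Alas2, of haem synthesis, had 442 and 534 in NSN-CCs, against 668 and 597 in SN-CCs. The pools did not overlap on either, with Hba-a1 higher in both NSN-CCs pools (0.78, standard error 0.28) and Alas2 lower in both (-0.52, standard error 0.19). The part of these markers in the values of the actins, tropomyosins and vimentin was not tested.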

How the data were processed

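RNA of 4 pools of CCs (2 of NSN-CCs, 2 of SN-CCs) was amplified (in 2 rounds by the paper's methods, in a single step by the labels) and hybridised to Illumina mouse-8 BeadChips by the authors, who read them with BeadStudio (version 3 in the submitters' processing notes). The first deposited table holds intensity values, the probe signals on a linear scale with background left in and no scaling between arrays. The second deposited table holds intensity values after the authors' normalization (rank invariant, described as background-subtracted), and it ranks the probes of each array as the first does. Its median is 222 for SN-CCs replicate 2 and 124 to 125 for the others. Its lowest value is 182 for SN-CCs replicate 2 and 66.2 to 69.1 for the others. Neither table has detection p-values. Groups came from the titles. Per the study's methods these pools are biological replicates.

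The 25697 signals were corrected with normexp (offset 50), quantile normalized and log2 transformed, and limma 3.58.1 in R 4.3.3 was fitted (no covariate, no filter), with Benjamini-Hochberg adjustment over all probes. The number of arrays limits the precision. The test was tried on simulated arrays with known changes, at the spread of the NSN-CCs pools and at that of the SN-CCs pools. Recovery of the changes was required only at the spread of the NSN-CCs pools. Passing the trial therefore says nothing about the wider spread of the SN-CCs pools. Gene symbols came from the platform annotation, updated by gene ID (23978 probes with a symbol, 1719 without), and the 20 probes were chosen by their name in the table. The RefSeq promoter table gave the sequences. Tpm4 had no entry in the annotation and is named as in the table.

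The genes, the lists and the tests were chosen with earlier results of these data known. Named were all probes of the 10 genes, up to 2 higher and 2 lower genes of each cytoskeleton list with the smallest p, and the 3 genes nearest to Vim. Genes of the marker lists are described by sums, except for 2 genes of red cells, and 1 marker gene is not reported here. Srf, Ptprs and probe ILMN_2693895 were named after their values were seen. Alternatives were another offset, no background correction, median scaling, cyclic loess, the authors' table (floored at 16), a filter on dim probes, array weights, a replicate block and each array left out. Averaging the probes of a gene was added after seeing the data. Deviations of same-numbered pools from the means of their types correlated at 0.046. With 2 pools of each type this cannot decide whether replicate numbers pair the pools.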

Additional observations from a re-analysis of the deposited data

How the results depend on the processing

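No call at an adjusted p of 0.05 was made for the 20 probes under any alternative with all 4 arrays, the replicate block included (0 of 20). The labels number the pools and do not say whether same-numbered pools belong together. The block left 610 of all probes at an unadjusted p under 0.05 in limma, against 800 without it. The authors' table moved the median of all probes to -0.43, against -0.033, with 4497 of 25697 probes above 0. Its medians were -0.33 for the 20 probes, -0.038 for actin crosslinking and -0.47 for the muscle list (1 of 10 above 0). They were -0.19 for intermediate filaments, -0.34 for tubulins and 0.056 for the SRF pathway. On the filtered probes the medians were 0.55 for the set, 0.13 for intermediate filaments and -0.14 for tubulins, with 2 of the muscle list above 0, where fewer genes were tested. Median scaling gave 0.070 for actin crosslinking, -0.13 for tubulins and -0.10 for the SRF pathway. Cyclic loess gave 0.051 for intermediate filaments, 0.063 for tubulins and 0.23 for the SRF pathway, and an offset of 16 gave -0.15 for tubulins. Tagln was at 0.00025 with an offset of 16, 0.034 with median scaling and 0.063 with cyclic loess. As the mean of its probes Actb was at -0.99 (0.56 on the brightest probe) and Acta2 at 0.40 (-0.33 on the brightest probe).

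Leaving out 1 array in turn, the median of the 20 probes ran between -0.0063 and 0.20, and the number above 0 between 10 and 15. The 13 came without SN-CCs replicate 1, where the lone SN-CCs pool is replicate 2 and 37.2% of all probes passed (0 to 16 in actin turnover, 0 to 15 in crosslinking, 0 to 7 in the muscle list, 0 to 6 in intermediate filaments, 0 to 8 in tubulins and 0 to 4 in the SRF pathway). The list medians ran between 0.033 and 0.27 in actin turnover, 0.090 and 0.20 in crosslinking, and -0.24 and 0.058 in the muscle list. They ran between -0.032 and 0.21 in intermediate filaments (6 to 10 above 0). In tubulins the range was -0.056 to -0.021, and in the SRF pathway 0.049 to 0.15. Of the 14 probes above background on at least 1 array, those whose sign turned ran between -7.76 and 0.36 (Actb ILMN_2846865), -7.49 and 0.40 (ILMN_2588055), -0.12 and 5.09 (ILMN_2617433), -1.91 and 0.54 (ILMN_1377923), -0.97 and 0.29 (Acta2 ILMN_2923445), -0.034 and 1.92 (ILMN_2710354), -1.09 and 0.28 (Tpm2 ILMN_2487170) and -0.13 and 0.15 (Tagln). The cause was not tested in any of these. Probes near the background limit (Tagln, Actg1 and most of Tpm2 and Tpm3) are limited by their signal.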

Other observations

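Among 4777 genes with several annotated probes, the probes of a gene differed in how far SN-CCs replicate 2 stood from replicate 1 by a median range of 0.54 on the log2 scale. These ranges use measured values, also of probes not above background. Actb had the largest range of these genes, at least 13.26 with such values in SN-CCs replicate 1 set to the lowest above background, ahead of Hnrnpa2b1, an RNA-binding protein gene, at 6.19. In the NSN-CCs pools the median range was 0.22, the range of Actb was 0.14 and the largest was 1.20, for the transcription factor gene Cux2. In 47 genes (0.984%), Actb and Acta2 among them, 1 probe was higher by more than 1 and another lower by more than 1 in SN-CCs replicate 2, and in 0 genes between the NSN-CCs pools. The comparison was chosen after the Actb values had been seen, and the cause was not tested.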
